A study of Homo sapiens with 36 samples.

Results

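The VHL-HIF oxygen-sensing genes were followed across renal carcinoma cells in 10 members, out of 45478 genes counted. With earlier results of these data known, all were chosen by name for their place in the pathway and not for their values. They are the alpha subunits HIF1A, EPAS1 (HIF-2 alpha) and HIF3A, the partners ARNT and ARNT2, the ubiquitin ligase receptor VHL, the prolyl hydroxylases EGLN1, EGLN2 and EGLN3, and the asparaginyl hydroxylase HIF1AN. RNA was sequenced from A498 and 786-O, established human lines labelled as advanced clear cell renal cell carcinoma. By the labels, each came as parental cells and as cells selected over months in rising sunitinib. The drug inhibits VEGF and PDGF receptor kinases. The labels give stable growth at 2 µM of the drug in A498 cells and at 4 µM in 786-O cells. All groups, the parental ones included, received an antibody against PD-L1 (atezolizumab, avelumab or durvalumab) over 24 h, at a concentration that the labels write as 10 mg/mL. The 36 libraries form 12 groups of 3 and 4 cell states of 9, and untreated cells were not analysed here. Each resistant state is 1 selected population, grown from its line according to its label. The profile of the libraries labelled A498 resistant went against that label, as given below. Each state carries its own batch label, so state and batch cannot be told apart.

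In cells with enough oxygen, the EGLN enzymes hydroxylate prolines of the HIF alpha subunits, VHL binds the hydroxylated protein, and a ligase built on VHL marks it for destruction. HIF1AN, also called FIH, hydroxylates an asparagine that blocks coactivator binding. Alpha subunits that escape pair with ARNT proteins and switch on genes of glycolysis, angiogenesis and growth. Loss of VHL is the founding lesion of most clear cell renal carcinomas, and 786-O and A498 are both widely used as lines without functional VHL protein. The pathway is controlled mainly through protein stability, which mRNA levels do not measure.

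Levels are given as CPM, counts scaled by the raw total of each library, with the SD over 9 libraries of a state. Changes are log2 differences with their SE from edgeR's quasi-likelihood test, averaged over the antibodies, and "called" means a Benjamini-Hochberg adjusted p below 0.05 over all genes tested. Totals ran from 19994882 to 58122896 counts per library. Libraries of 2 states often did not overlap in CPM. That held for 38.6% of genes between both resistant labels and for 72.7% between the states labelled A498. Other pairs lay between these shares, taken over genes with a mean of at least 1 CPM in either state. The labels do not say that libraries of a group were separate cultures, and the p-values therefore cover the spread between these samples alone, which may be technical. The profile of 1 state went against its label. The libraries labelled A498 resistant stood nearer to 786-O resistant (69% of genes called, median absolute log2 difference 0.25) than to A498 parental (88.2% called, median 0.61), so no direction drawn from them is read here as resistance of A498. The 9 renal epithelial markers summed to 2497 to 2786 CPM in A498 parental, 1966 to 2125 in 786-O parental, 1399 to 1521 in the libraries labelled A498 resistant and 1326 to 1402 in 786-O resistant. PAX8, a renal lineage transcription factor, was at 224 to 291 CPM as state means, the keratin gene KRT8 at 735 to 1617 and the cadherin gene CDH6 at 25.6 to 124, while EPCAM was at or below 0.640 in all states but 786-O parental (5.22). The HIF-driven markers of clear cell carcinoma CA9 and NDUFA4L2 were low, with state means of at most 1.27 and 0.713 CPM. Summed leukocyte markers (5 genes) stayed between 0.342 and 2.08 CPM over all libraries, with CD3E at 0 in both parental states. Summed endothelial and fibroblast markers (6 genes) were highest in A498 parental, at 50.4 to 61.7 CPM against 5.70 to 23.5 in the other states, mostly from COL1A1 (55.7 CPM as a mean). LUM and VWF did not follow that order, with means of 0.0142 and 0.0571 CPM in A498 parental against 16.2 and 0.562 in the libraries labelled A498 resistant and 7.34 and 0.464 in 786-O resistant, and CDH5 and DCN stayed at or below 0.0578 CPM as state means. Their part in the differences below was not tested.

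Sequence upstream of 3 members whose levels set the states apart is shown here, 250 bases ending at the RefSeq start site (GRCh38.p14, strand of the gene). Capitals mark the core hypoxia response letters ACGTG or GCGTG on either strand (CACGT or CACGC when read on the other strand). The windows are HIF1A, chr14:61695263-61695512 on the plus strand, EPAS1, chr2:46297157-46297406 on the plus strand, and EGLN3, chr14:33951075-33951324 on the minus strand. For EPAS1 and EGLN3 the RefSeq start lies inside the longer gene that GENCODE annotates.
HIF1A: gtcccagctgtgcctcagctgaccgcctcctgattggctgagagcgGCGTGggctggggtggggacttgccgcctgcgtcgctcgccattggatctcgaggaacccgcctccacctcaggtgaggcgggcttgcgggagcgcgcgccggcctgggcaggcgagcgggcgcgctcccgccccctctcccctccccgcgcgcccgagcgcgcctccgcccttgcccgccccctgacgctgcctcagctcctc
EPAS1: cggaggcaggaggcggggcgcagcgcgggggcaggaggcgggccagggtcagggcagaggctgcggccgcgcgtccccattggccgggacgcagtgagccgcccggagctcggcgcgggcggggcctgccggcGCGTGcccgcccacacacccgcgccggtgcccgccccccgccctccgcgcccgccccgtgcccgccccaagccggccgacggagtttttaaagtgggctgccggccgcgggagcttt
EGLN3: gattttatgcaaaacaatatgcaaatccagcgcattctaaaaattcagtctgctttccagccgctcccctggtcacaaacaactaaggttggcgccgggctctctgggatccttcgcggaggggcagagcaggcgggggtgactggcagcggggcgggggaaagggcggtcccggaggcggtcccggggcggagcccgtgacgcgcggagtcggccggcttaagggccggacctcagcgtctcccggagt
The HIF1A window holds 1 GCGTG, starting 204 bases before the start site, and the EPAS1 window holds 1 GCGTG, starting 117 bases before it. Neither motif is in the EGLN3 window. HIF1A has another RefSeq start site, whose window (chr14:61697462-61697711, plus strand) is not shown and holds neither motif. Of 35116 RefSeq windows of the same length, 43.2% hold at least 1 of the motifs, 18.5% ACGTG and 32.2% GCGTG. A match in such a window is a description of the letters only.

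The alpha subunits gave the widest contrast between the states. HIF1A (ENSG00000100644.17, chromosome 14, 61695513 to 61748259 on GRCh38, plus strand), whose product is the broadly expressed HIF-1 alpha, lay between 285 and 305 CPM in the 9 A498 parental libraries (median 295, mean 294 ± 7.37). It lay between 8.40 and 9.73 CPM in all 9 libraries labelled A498 resistant (median 8.999, mean 8.99 ± 0.493). In 786-O it ran from 8.33 to 10.3 CPM in parental cells (median 9.46) and from 7.92 to 9.24 in resistant cells (median 8.76). A498 parental libraries stood above all others, by 31.4-fold over 786-O parental and 32.7-fold over the libraries labelled A498 resistant, while the other 3 states overlapped one another. In bulk RNA, fewer cells that hold a transcript and less of it per cell cannot be told apart. On the log2 scale, A498 parental minus 786-O parental was 4.94 ± 0.028 (edgeR adjusted p = 1.94e-56) and the libraries labelled A498 resistant minus A498 parental gave -5.11 ± 0.029 (edgeR adjusted p = 3.12e-62). Within 786-O, resistant cells were slightly lower, by a log2 change of -0.21 ± 0.044 (edgeR adjusted p = 5.16e-05), although the libraries overlapped. That difference was -0.31 under atezolizumab and -0.17 under durvalumab, and under avelumab it was -0.15 without passing the test (edgeR adjusted p = 0.0657, where 73.1% of all genes passed). Between the libraries labelled A498 resistant and 786-O resistant the change was 0.02 ± 0.044 (edgeR adjusted p = 0.743).

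EPAS1 (ENSG00000116016.14, chromosome 2, 46293667 to 46386703, plus strand) encodes HIF-2 alpha, the form regarded as the main driver of clear cell carcinoma. A498 parental, the highest state for HIF1A, was the lowest for EPAS1. It ran from 129 to 150 CPM in A498 parental libraries (median 136), from 154 to 188 in 786-O parental (median 166), from 230 to 255 in 786-O resistant (median 243) and from 237 to 256 in the libraries labelled A498 resistant (median 248.9). The first 3 states did not overlap, and the last 2 did. Between pairs of those first 3 states, 59.3% to 70.4% of all genes at 1 CPM or more did not overlap. EPAS1 rose in 786-O resistant cells by 0.41 ± 0.030 log2 (edgeR adjusted p = 1.60e-13), with 0.41, 0.43 and 0.38 under atezolizumab, avelumab and durvalumab. It was 0.77 ± 0.022 higher in the libraries labelled A498 resistant than in A498 parental (edgeR adjusted p = 2.73e-33), and A498 parental minus 786-O parental was -0.34 ± 0.031 (edgeR adjusted p = 1.43e-09).

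HIF3A (ENSG00000124440.15, chromosome 19, 46297046 to 46343433, plus strand), whose shorter products can restrain the other alpha subunits, was close to absent and was tested in no comparison because of the low-count filter. All 9 libraries together held 56 counts in A498 parental, 0 in 786-O parental, 4 in 786-O resistant and 7 in those labelled A498 resistant. The pooled level was 0.184 CPM in A498 parental (exact 95% interval 0.139 to 0.239), and 0 counts in 786-O parental allow up to 0.00853 CPM, by the limit of 3 counts over the state. Set against that limit, A498 parental was at least 21.5-fold higher than 786-O parental, and the exact 95% lower limit of the ratio, which also carries the counting error of A498 parental, is 16.9. It was 17.2-fold higher than 786-O resistant (interval 6.35 to 65.3), where intervals cover counting error only.

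Set per kilobase of exonic length, so that genes can be compared, HIF1A made up 75.3% ± 0.889 of the summed HIF1A and EPAS1 level in A498 parental libraries. The share was 7.25% ± 0.462 in 786-O parental, 4.84% ± 0.251 in 786-O resistant and 4.88% ± 0.274 in the libraries labelled A498 resistant (SD, n = 9 each). On the same scale the 2 genes together reached 75.8 ± 1.61 CPM per kb in A498 parental, against 25.1 ± 1.47 in 786-O parental, 35.0 ± 1.16 in 786-O resistant and 35.8 ± 0.891 in those labelled A498 resistant. In A498 parental the order of all members per kilobase was HIF1A (57.1), EPAS1 (18.7), EGLN3 (15.2), HIF1AN (6.35), VHL (4.06), ARNT (2.93), ARNT2 (2.81), EGLN1 (2.44), EGLN2 (0.343) and HIF3A (0.0213). The intervals of 1 SD around ARNT (± 0.099) and ARNT2 (± 0.179) overlapped. In 786-O parental EPAS1 led (23.3) and HIF1A (1.82 ± 0.111) stood below ARNT (4.86), close to EGLN1 (1.62 ± 0.177) and ARNT2 (1.58 ± 0.110). The interval of 1 SD around EGLN1 overlapped those of HIF1A and ARNT2, which did not overlap each other.

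**Figure D1:**
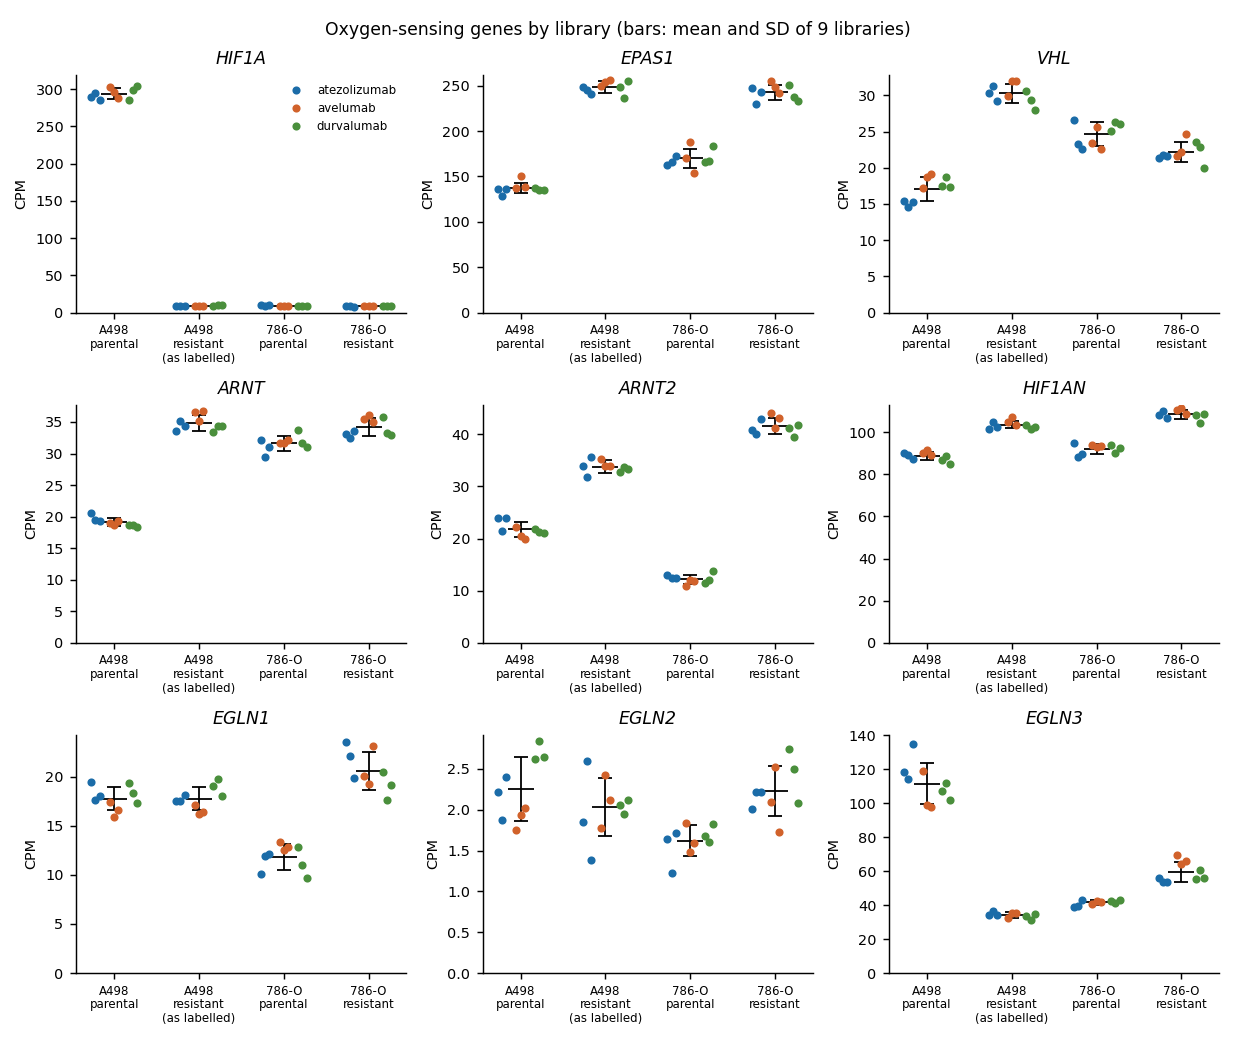
Level of 9 oxygen-sensing genes in CPM (y axis, from 0) for each of 36 libraries by cell state (x axis), coloured by antibody, with bars for the mean and SD of 9 libraries. HIF1A stands at 285 to 305 CPM in A498 parental and near 9 in the other states, and EPAS1 is lowest in A498 parental.

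HIF1A met the rule for a look at its neighbours, an absolute log2 difference of at least 3 between states. HIF1A-AS1, an antisense transcript that overlaps HIF1A on the other strand, was at 30.2 ± 1.48 CPM in A498 parental and at 1.92 ± 0.309, 2.189 ± 0.375 and 1.59 ± 0.273 in, respectively, the libraries labelled A498 resistant, 786-O resistant cells and 786-O parental cells. Whether the counting used strand is not given in the sources used here, so its reads and those of HIF1A cannot be told apart. The next protein-coding gene downstream, SNAPC1, begins 14.1 kb after HIF1A and shares no exon with it. Its product is a subunit of a complex needed for transcription of small nuclear RNA genes. SNAPC1 was at 21.5 ± 1.59 CPM in A498 parental and at 3.82 to 4.69 as means of the other states, 2.18 ± 0.053 higher than in 786-O parental on the log2 scale (edgeR adjusted p = 2.39e-28). SYT16, 63.7 kb downstream, was at 4.19 ± 0.572 CPM in A498 parental and at 0.205 to 0.643 elsewhere (log2 4.31 ± 0.128 over 786-O parental, edgeR adjusted p = 3.86e-30). Upstream, PRKCH, a protein kinase C gene 145 kb away, was also highest in A498 parental, at 7.64 ± 0.685 CPM against 4.78 ± 0.325 in 786-O parental (log2 0.64 ± 0.052, edgeR adjusted p = 4.76e-15). TMEM30B and KCNH5, farther out, were at or below 0.0872 CPM as state means, and AL355916.2 was not analysed here. Between the parental lines 87.2% of all genes were called.

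**Figure D2:**
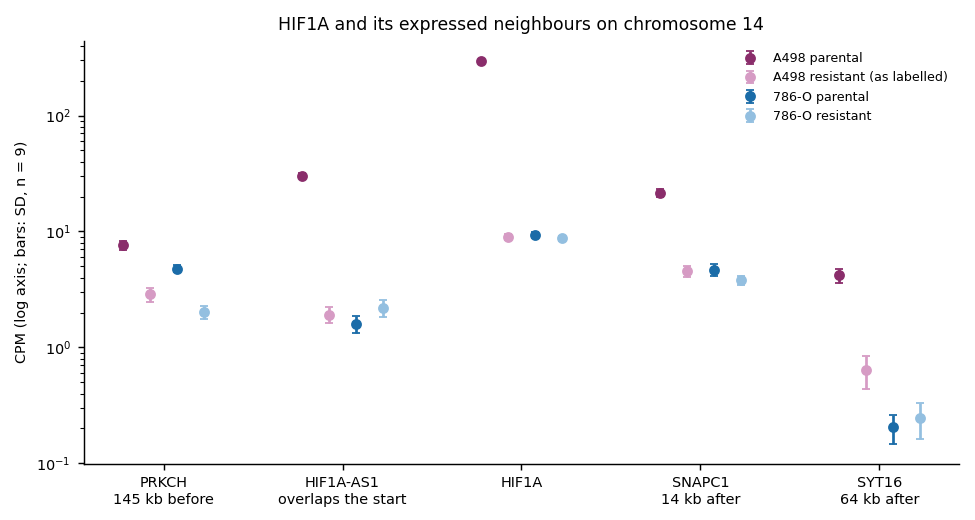
Mean level in CPM (log axis) with SD over 9 libraries for HIF1A and 4 neighbours, ordered along chromosome 14 with their distance from HIF1A, by cell state. A498 parental is highest for all 5 genes, with HIF1A-AS1 at 30.2 and SNAPC1 at 21.5 CPM.

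ARNT2 separated all 4 states. ARNT (ENSG00000143437.21, chromosome 1, 150809705 to 150876768, minus strand) encodes HIF-1 beta, the general partner of the alpha subunits, and ARNT2 (ENSG00000172379.21, chromosome 15, 80404350 to 80597937, plus strand) a related partner best known from the nervous system. ARNT2 ran from 10.9 to 13.8 CPM in 786-O parental (median 12.1), 19.9 to 23.9 in A498 parental (median 21.5), 31.8 to 35.6 in the libraries labelled A498 resistant (median 33.9) and 39.4 to 44.0 in 786-O resistant (median 41.2). No library of one state overlapped another for ARNT2, where 38.6% to 72.7% of all genes at 1 CPM or more did not overlap, by pair of states. Its mean CPM was 3.41 times as high in 786-O resistant as in parental cells, and the TMM-scaled fit gave a rise on the log2 scale (1.66 ± 0.034, edgeR adjusted p = 7.34e-29), with 1.61, 1.77 and 1.61 under atezolizumab, avelumab and durvalumab. The libraries labelled A498 resistant were 0.55 ± 0.033 above A498 parental (edgeR adjusted p = 1.59e-20).

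ARNT moved less. It ran from 18.4 to 20.5 CPM in A498 parental (median 19.1), and from 29.4 to 36.8 over the 3 other states, which overlapped. Its level was 0.78 ± 0.030 higher in the libraries labelled A498 resistant than in A498 parental (edgeR adjusted p = 5.39e-28). In 786-O the change was 0.00 ± 0.029 (edgeR adjusted p = 0.943), which became a call of 0.072 with a strict filter of at least 1 CPM in every library (edgeR adjusted p = 0.0185) and of 0.11 when libraries were scaled by raw totals. Per kilobase, the ratio of ARNT2 to ARNT went from 0.326 ± 0.030 in 786-O parental to 1.03 ± 0.041 in 786-O resistant. It was 0.959 ± 0.048 in A498 parental and 0.818 ± 0.034 in the libraries labelled A498 resistant.

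VHL mRNA was present in every state. VHL (ENSG00000134086.7, chromosome 3, 10141008 to 10152220, plus strand) supplies the substrate receptor of the ligase, and its mRNA level says nothing of whether the protein works. It ran from 14.6 to 19.2 CPM in A498 parental (median 17.3), 19.9 to 24.7 in 786-O resistant (median 21.7), 22.6 to 26.5 in 786-O parental (median 25.1) and 28.0 to 32.0 in the libraries labelled A498 resistant (median 30.3). Only the 786-O states overlapped. By pair of states, 38.6% to 72.7% of all genes at 1 CPM or more did not overlap. VHL fell by 0.26 ± 0.037 log2 in 786-O resistant cells (edgeR adjusted p = 1.28e-07), with -0.27, -0.18 and -0.33 under atezolizumab, avelumab and durvalumab. It was 0.74 ± 0.033 higher in the libraries labelled A498 resistant than in A498 parental (edgeR adjusted p = 2.43e-25).

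Among the prolyl hydroxylases, EGLN3 (ENSG00000129521.14, chromosome 14, 33924231 to 34462774, minus strand), known as PHD3 and itself a HIF target, varied most. It ran from 97.7 to 135 CPM in A498 parental (median 112), 53.3 to 69.3 in 786-O resistant (median 56.0), 38.9 to 43.2 in 786-O parental (median 42.0) and 31.3 to 36.5 in the libraries labelled A498 resistant (median 34.3). All 4 ranges were apart, where 38.6% to 72.7% of all genes at 1 CPM or more did not overlap, by pair of states. EGLN3 rose in 786-O resistant cells by 0.40 ± 0.028 log2 (edgeR adjusted p = 1.64e-14), and the A498 comparison as labelled gave -1.79 ± 0.048 (edgeR adjusted p = 1.57e-15). Per kilobase it made up 84.4% ± 1.28 of the 3 EGLN genes in A498 parental and 62.8% ± 2.07 in the libraries labelled A498 resistant, with 75.1% ± 1.73 and 71.7% ± 2.68 in 786-O parental and resistant.

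EGLN1 (ENSG00000135766.9, chromosome 1, 231363751 to 231425044, minus strand), or PHD2, is regarded as the main oxygen sensor of the family. It ran from 9.64 to 13.3 CPM in 786-O parental (median 12.1) and from 17.6 to 23.5 in 786-O resistant (median 20.1), without overlap. That rise was 0.69 ± 0.055 log2 (edgeR adjusted p = 1.90e-11). Between these 2 states 59.3% of all genes at 1 CPM or more did not overlap. A498 parental libraries ran from 15.8 to 19.4 CPM (median 17.6) and those labelled A498 resistant from 16.2 to 19.8 (median 17.6), overlapping almost fully. The log2 difference between these 2 states, -0.09 ± 0.037 (edgeR adjusted p = 0.0249), was -0.0029 with raw totals (edgeR adjusted p = 0.940). It did not pass with no low-count filter (edgeR adjusted p = 0.0951), under avelumab alone (0.199) or under durvalumab alone (0.643). It also lost its call without any 1 of 6 libraries, which are atezolizumab replicate 2, avelumab replicate 2 and durvalumab replicate 3 labelled A498 resistant, and replicate 1 of each antibody in A498 parental (edgeR adjusted p from 0.0504 to 0.0823).

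EGLN2 (ENSG00000269858.6, chromosome 19, 40798996 to 40808433, plus strand), or PHD1, was low and is uncertain, since 30.6% of its exonic length is shared with other annotated genes, mainly the readthrough RAB4B-EGLN2. Its state means ran from 1.62 ± 0.185 CPM in 786-O parental to 2.26 ± 0.389 in A498 parental, and all states overlapped. It rose by 0.36 ± 0.091 log2 in 786-O resistant cells (edgeR adjusted p = 0.000694), with 0.29 under avelumab alone not passing (edgeR adjusted p = 0.0891). In the A498 comparison as labelled its difference, -0.22 ± 0.098 (edgeR adjusted p = 0.0321), was -0.14 with raw totals (edgeR adjusted p = 0.189). It did not pass with no low-count filter (edgeR adjusted p = 0.0626) or under atezolizumab alone (0.147), and was 0.0864 under avelumab alone (0.640). Its call was also lost without any 1 of atezolizumab replicates 1 and 3, avelumab replicate 1 and durvalumab replicate 2 labelled A498 resistant, or atezolizumab replicate 3 of A498 parental (edgeR adjusted p from 0.0521 to 0.136). Libraries labelled A498 resistant minus 786-O resistant gave -0.17 ± 0.10, called only without atezolizumab replicate 2 of the former (edgeR adjusted p = 0.0319 against 0.141 in full). Against 786-O parental they gave 0.18 ± 0.10 (edgeR adjusted p = 0.101), called without atezolizumab replicate 3 of the former (edgeR adjusted p = 0.0188), with raw totals (0.32) and with the strict filter of at least 1 CPM in every library (0.25).

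HIF1AN (ENSG00000166135.14, chromosome 10, 100529072 to 100559998, plus strand) varied least between states of the 9 tested members. It ran from 85.0 to 91.5 CPM in A498 parental (median 88.9), 88.0 to 95.03 in 786-O parental (median 93.01), 102 to 107 in the libraries labelled A498 resistant (median 103) and 104 to 112 in 786-O resistant (median 109). Both parental states overlapped, as did both resistant ones. Its log2 changes were 0.13 ± 0.022 in 786-O (edgeR adjusted p = 3.92e-06) and 0.14 ± 0.021 for the difference labelled as A498 resistance (edgeR adjusted p = 5.86e-08). The difference between these changes was -0.02 ± 0.029 (edgeR adjusted p = 0.446).

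Counted over the 9 tested members, 8 were called in 786-O resistant against parental cells, 6 higher and 2 lower, where 83.8% of all genes tested were called, 43.6% higher and 40.2% lower. Their median log2 change was 0.36, against 0.03 over all genes. Scaling by raw totals shifts every change in this comparison up by 0.11, under which HIF1A (-0.11) and VHL (-0.16) stayed lower and called. In the difference labelled as A498 resistance, 9 of 9 were called, 5 higher and 4 lower, where 88.2% of all genes were called, 44.2% higher and 44% lower. Between the parental lines 9 of 9 were called, 5 higher and 4 lower in A498, against 87.2% of all genes (44.3% higher, 42.9% lower), although HIF1AN (-0.09 ± 0.021) was at -0.01 with the strict filter and lost its call (edgeR adjusted p = 0.526). Shares this close to the background say little about the members as a set. Of the 9, 5 were called between the libraries labelled A498 resistant and 786-O resistant, against 69% of all genes (33.8% higher, 35.2% lower): VHL higher by 0.42 ± 0.036, and ARNT2, EGLN1, EGLN3 and HIF1AN with log2 changes of -0.33, -0.24, -0.82 and -0.10. Against 786-O parental, 6 of 9 were called in the libraries labelled A498 resistant, where 83.5% of all genes were. Raw totals shift that comparison up by 0.14, and HIF1A (-0.20 ± 0.046) then lost its call (edgeR adjusted p = 0.233). With raw totals HIF1AN (0.17), ARNT (0.14) and EGLN2 (0.32) gained a call (edgeR adjusted p from 1.50e-09 to 0.00551). The strict filter also called these members, with HIF1AN at 0.092 (edgeR adjusted p = 4.93e-05). The change labelled as resistance was called different between 786-O and A498 as labelled for 8 of 9 members, where 80.4% of all genes were called.

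**Figure D3:**
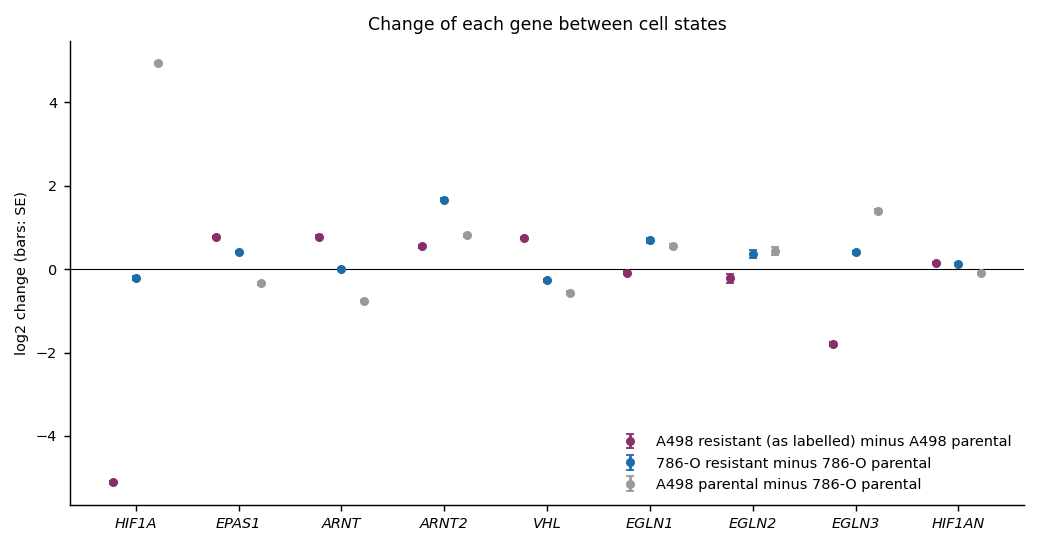
Change of 9 members on the log2 scale with SE (y axis) for the difference labelled as A498 resistance, for 786-O resistance and between the parental lines. HIF1A lies at -5.11 and 4.94 in the comparisons with A498 parental and at -0.21 in 786-O, and ARNT2 has the largest 786-O change, 1.66.

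Few members were called between antibodies. In A498 parental cells 1 of 9 members, VHL, was called over the 3 antibodies (edgeR adjusted p = 0.0186), where 3.83% of all genes were. VHL read 15.4, 14.6 and 15.3 CPM under atezolizumab, 17.2, 18.8 and 19.2 under avelumab and 17.5, 18.7 and 17.3 under durvalumab. The atezolizumab libraries lay below all 6 others. Avelumab was 0.27 ± 0.063 log2 above atezolizumab (edgeR adjusted p = 0.0129, with 3.39% of all genes called) and durvalumab 0.23 ± 0.062 above it (edgeR adjusted p = 0.0429, with 2.8%). The avelumab call was lost without avelumab replicate 2 (edgeR adjusted p = 0.0957). The durvalumab call was lost in DESeq2 (adjusted p = 0.0948) and without any 1 library other than avelumab replicates 1 and 3 (edgeR adjusted p from 0.0537 to 0.168). The call over the 3 antibodies was lost without any 1 of the 3 atezolizumab libraries or avelumab replicate 2 (edgeR adjusted p from 0.0548 to 0.0962), and without avelumab replicate 1 EGLN3 was called too (edgeR adjusted p = 0.00960).

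In 786-O resistant cells 1 of 9 members, EGLN3, was called (edgeR adjusted p = 0.0165), where 0.741% of all genes were. EGLN3 read 55.8, 53.7 and 53.3 CPM under atezolizumab, 69.3, 64.3 and 65.7 under avelumab and 55.2, 60.6 and 56.0 under durvalumab. The avelumab libraries lay above all 6 others. Avelumab was 0.27 ± 0.052 log2 above atezolizumab (edgeR adjusted p = 0.00976, with 1.2% of all genes called), and durvalumab minus avelumab, -0.22 ± 0.051, did not pass (edgeR adjusted p = 0.0739, with 0.387% called). The avelumab against atezolizumab call was lost without atezolizumab replicate 2 or 3 (edgeR adjusted p of 0.0851 and 0.0842). The call over the 3 antibodies was lost without atezolizumab replicate 2 or 3 or avelumab replicate 1 or 2 (edgeR adjusted p from 0.0697 to 0.0905).

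No member was called by edgeR over the antibodies in the libraries labelled A498 resistant (0.0114% of all genes called) or in 786-O parental (3.52%), and DESeq2 called none in either. At an unadjusted p below 0.05 there was 1 member in the former and 0 in the latter. Whether an antibody difference depended on the state was tested within each line as labelled. The A498 test rests on the libraries labelled A498 resistant, whose profile stood nearer to 786-O resistant. For A498 edgeR and DESeq2 called 0 members, with 1 at an unadjusted p below 0.05 (0.889% of all genes called by edgeR), and VHL had an edgeR adjusted p of 0.194. For 786-O edgeR called 0 members, with 1 at an unadjusted p below 0.05 (0.614% of all genes called). EGLN3 there had an edgeR adjusted p of 0.0908 and a DESeq2 adjusted p of 0.0480, and it was called by edgeR without durvalumab replicate 1 or 2 of 786-O resistant (adjusted p of 0.0345 and 0.0485).

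**Figure D4:**
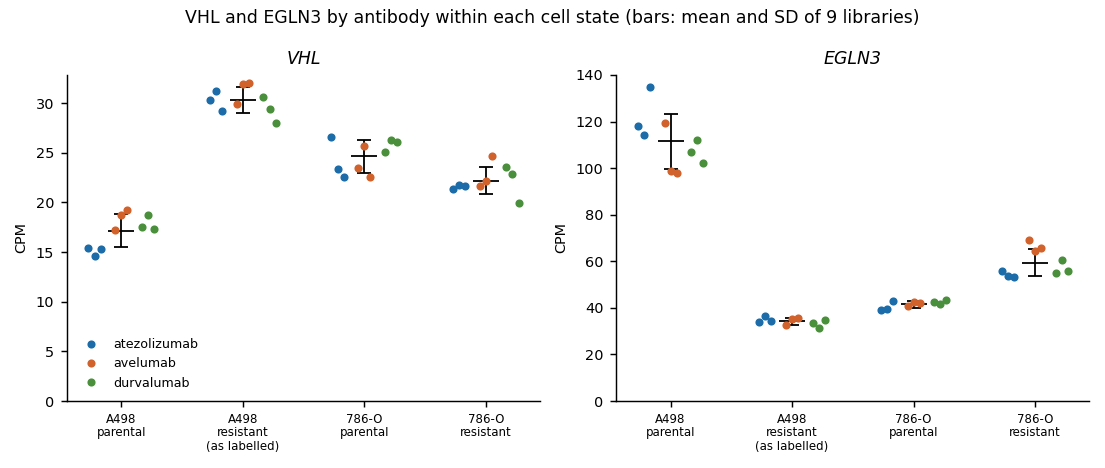
Level of VHL and EGLN3 in CPM (y axis, from 0) per library under each antibody within each cell state, with the mean and SD of 9 libraries. VHL is lowest under atezolizumab in A498 parental (14.6 to 15.4), and EGLN3 is highest under avelumab in 786-O resistant (64.3 to 69.3).

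The genes around the members were described by lists drawn from the known pathway, over all of whose measured genes the counts run. Of the 7 genes that build, charge or oppose the VHL ligase, 1 rose and 5 fell in 786-O resistant cells, where 43.6% of all genes rose and 40.2% fell, with a median log2 change of -0.38 against 0.03 over all genes. RBX1, the ring subunit that recruits the ubiquitin-loaded enzyme, fell by 0.69 ± 0.031, ELOC, the elongin that VHL binds directly, by 0.49 ± 0.036, and CUL2, the scaffold, by 0.41 ± 0.030 (edgeR adjusted p from 1.25e-19 to 5.49e-12). In the difference labelled as A498 resistance 2 were higher and 4 lower, where 44.2% of all genes were higher and 44% lower, ELOB by -0.62 ± 0.023, a value that is uncertain because 16.8% of its exonic length is shared. Among 13 modulators of HIF, 2 rose and 10 fell in 786-O (median -0.32, where 43.6% of all genes rose and 40.2% fell), and 5 were higher and 8 lower in the A498 comparison (median -0.14, with 44.2% and 44%). P4HTM, a membrane-bound prolyl hydroxylase, was higher in both, by 0.86 ± 0.030 and 1.505 ± 0.035. The acetyltransferase gene NAA10 was lower in both, by -0.92 ± 0.030 and -1.21 ± 0.031, with 10.1% of its exonic length shared. RACK1, a scaffold that competes with a chaperone for HIF-1 alpha, fell by 0.65 ± 0.024 in 786-O, and BHLHE41, a circadian repressor, was 1.20 ± 0.041 higher in the A498 comparison.

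Among 5 transcriptional cofactors, 4 rose and 1 fell in 786-O, and 3 were higher and 1 lower in the A498 comparison, near the shares of all genes called (83.8% and 88.2%). EP300, an acetyltransferase that HIF recruits, was 0.36 ± 0.062 and 0.47 ± 0.079 higher. CITED2, which competes with HIF for that protein, was 1.61 ± 0.027 higher in the libraries labelled A498 resistant, while the related CITED4 was lower there by -1.66 ± 0.13 and rose by 0.60 ± 0.14 in 786-O. Of 9 tested relatives with the same bHLH-PAS fold, 5 rose and 4 fell in 786-O, and 4 were higher and 4 lower in the A498 comparison, where 83.8% and 88.2% of all genes were called. SIM1, a developmental regulator, read 0.0946 ± 0.0512 CPM in A498 parental, 3.91 ± 0.652 in 786-O parental, 10.4 ± 0.597 in 786-O resistant and 16.9 ± 0.857 in the libraries labelled A498 resistant. NPAS1 rose by 2.35 ± 0.15 and NPAS2 by 1.34 ± 0.046 in 786-O, whereas NPAS2 and BMAL1, partners in the circadian clock, were lower in the A498 comparison (-1.39 and -1.47).

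Known HIF targets did not move as one. Of 9 tested targets leaning to HIF-1, mostly glycolytic genes, 2 rose and 7 fell in 786-O resistant cells (median -0.38), where 43.6% of all genes rose and 40.2% fell. PDK1, a kinase that inhibits pyruvate dehydrogenase, fell by 0.94 ± 0.043. ALDOC, a glycolytic aldolase with 10.1% of its exonic length shared, was at 29.2 ± 2.14 CPM in A498 parental, 3.07 ± 0.175 in 786-O parental, 1.57 ± 0.269 in 786-O resistant and 1.46 ± 0.174 in the libraries labelled A498 resistant. CA9, a cell-surface carbonic anhydrase with 38.5% shared, was at 1.27 ± 0.364 CPM in A498 parental and at most 0.0198 as a mean elsewhere. Of 10 such targets tested in the A498 comparison, 3 were higher and 6 lower (median -0.16), where 44.2% of all genes were higher and 44% lower.

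Of 4 tested targets leaning to HIF-2, 1 rose and 2 fell in 786-O, and 2 were higher and 2 lower in the A498 comparison, where 83.8% and 88.2% of all genes were called. CCND1, the cyclin D1 gene, was higher in both, by 0.30 ± 0.025 and 1.23 ± 0.021 (10.3% of its exonic length is shared), and the growth factor gene TGFA was lower in both, by -0.85 ± 0.026 and -0.67 ± 0.022. Of 9 shared targets, 3 rose and 4 fell in 786-O, and 5 were higher and 3 lower in the A498 comparison, against the same shares of all genes. STC2, a secreted stanniocalcin, went from 248 ± 15.1 to 32.7 ± 0.943 CPM in 786-O, and was at 109 ± 10.6 in A498 parental and 26.6 ± 1.10 in the libraries labelled A498 resistant. NDRG1, a stress-response gene, rose by 1.48 ± 0.035 in 786-O. ANGPTL4, a lipoprotein lipase inhibitor, rose by 0.70 ± 0.11 there and was lower in the A498 comparison (-2.27 ± 0.094).

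**Figure D5:**
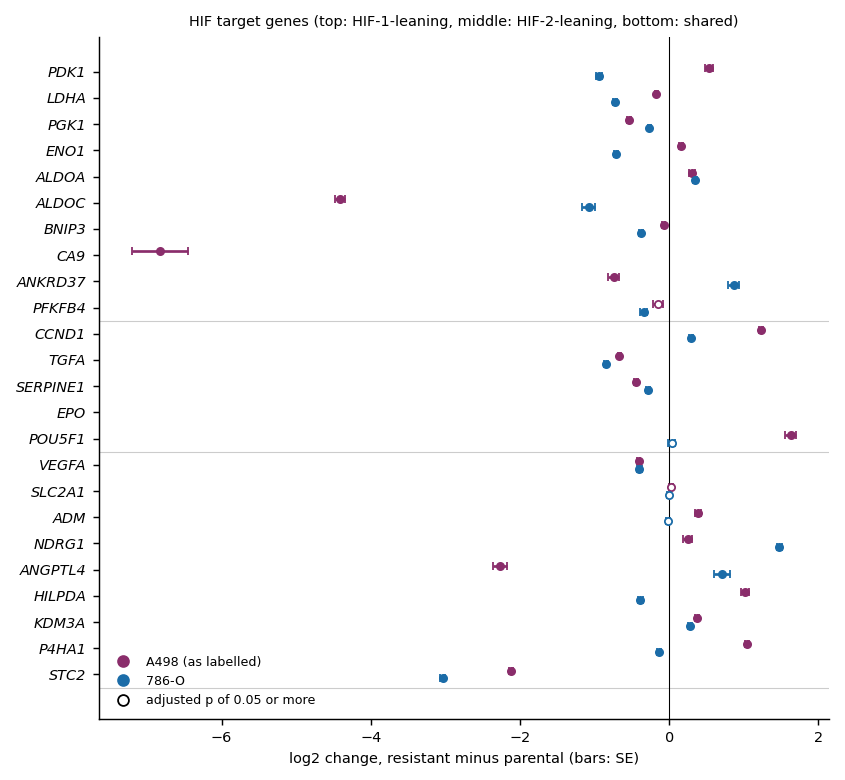
Change on the log2 scale with SE (x axis), resistant minus parental, for HIF targets in 786-O and in the comparison labelled A498, grouped as leaning to HIF-1 (top), leaning to HIF-2 (middle) and shared (bottom), with open points for adjusted p of 0.05 or more. Targets lie on both sides of 0, with ALDOC at -4.41 in the A498 comparison and STC2 at -3.03 in 786-O. CA9 is at -6.82 in the A498 comparison, a size that is uncertain because the libraries labelled A498 resistant hold 2 CA9 counts in total.

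Over the 12 group means, the protein-coding genes whose log2 CPM was most like that of HIF1A were TNFAIP8L3, EPS8 and FNDC10 (Pearson r from 0.999 to 1.00 among 14262 genes). EPS8 was at 146 CPM in A498 parental and near 50 in the other states. TNFAIP8L3 and FNDC10 were at 13.6 and 12.1 CPM in A498 parental. Elsewhere their state means were at most 0.0152 and 0.0510 CPM, so their r describes presence in A498 parental and near absence in the other states. Most like EPAS1 were SUSD1, ZFYVE9 and MFSD9 (r of 0.997), and most like VHL were USP54, BCAT1 and BLTP3B (r from 0.981 to 0.982). The 12 groups fall into 4 states that share batch labels, so these values describe the pattern over states only, and 1120, 600 and 115 genes passed r = 0.95 for HIF1A, EPAS1 and VHL.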

How the data were processed

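RNA was measured in 36 libraries made with a stranded, poly(A)-selecting kit, per the labels' protocols. The table the authors deposited holds raw read counts by gene without any normalization. Per the submitters' processing notes, bcl2fastq 2.19.0, Trimmomatic 0.36.6, HISAT2 2.1.0, featureCounts 1.6.3 and GRCh38 were used. Neither annotation release nor strand setting is given in the sources used here. Gene positions, exonic lengths and shared exons came from GENCODE 29, and promoter sequences from RefSeq (GRCh38.p14), which matched 8 of the 10 members.

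Tests ran in edgeR 4.0.16 (R 4.3.3) on the counts as deposited: filterByExpr by group (minimum count 10, minimum total 15), TMM scaling, robust quasi-likelihood on group means, Benjamini-Hochberg adjustment over all genes. A state comparison used the libraries of its states, antibodies within a state its 9 libraries, and the difference between lines all 36. SEs came from the F statistic. The fits were checked on simulated data, where changes as small as those called between antibodies were recovered only in part. CPM used raw totals. The libraries carry no molecular identifiers, and intervals cover counting error only. Named genes were all members, up to 3 of each list by size of change with 1 CPM or more in the higher state, and the 3 genes most like HIF1A, EPAS1 and VHL. Alternatives were DESeq2 1.42.0, RLE scaling, raw totals (added after seeing the data), filters, a replicate block and leaving out each library. The members and lists were chosen with earlier results of these data known.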

Additional observations from a re-analysis of the deposited data

Results flagged for a closer look

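For 8 members the change labelled as resistance in 786-O differed from that labelled as resistance in A498, by a test of the difference itself in all 36 libraries. The 786-O change minus the A498 change was, on the log2 scale, 4.89 ± 0.048 for HIF1A (edgeR adjusted p = 8.07e-59), -0.38 ± 0.037 for EPAS1 (edgeR adjusted p = 1.39e-13), -0.79 ± 0.040 for ARNT (edgeR adjusted p = 2.75e-25) and 1.10 ± 0.047 for ARNT2 (edgeR adjusted p = 1.95e-28). It was -1.02 ± 0.050 for VHL (edgeR adjusted p = 7.97e-26), 0.77 ± 0.067 for EGLN1 (edgeR adjusted p = 1.14e-14), 0.57 ± 0.13 for EGLN2 (edgeR adjusted p = 0.000139) and 2.18 ± 0.052 for EGLN3 (edgeR adjusted p = 1.56e-32). These values rest on the libraries labelled A498 resistant, whose profile is nearer to 786-O, and each of the 4 states has its own batch label, so line, resistance and batch cannot be told apart in them.

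In A498 parental, EPAS1 in avelumab replicate 2 was at 150 CPM, apart from the next highest library at 138. It was the only library to stand apart in this way among 36 sets of 9 libraries, where chance alone gives about 1 in 20.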

How the results depend on the processing

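Of 276 recomputed counts of called members, 263 stayed within 1.5 times the main count. The others all concern antibodies. Leaving out 1 library at a time gave 0 to 2 members in A498 parental, 0 to 1 in 786-O resistant and 0 to 1 for dependence on state in 786-O, where DESeq2 and the fit with no filter each gave 1. Over all genes, the calls across antibodies went from 618 to 1400 with no filter in 786-O parental, from 140 to 692 (307 in DESeq2) in 786-O resistant, from 704 to 1099 in A498 parental and from 2 to 50 in the libraries labelled A498 resistant. Dependence on state went from 119 to 691 (429 in DESeq2) in 786-O and from 173 to 354 in A498 as labelled.

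Of 1557 recomputed log2 changes of members, 1469 kept their direction and their side of the threshold, 34 lost a call, 8 gained one and 46 changed sign. Apart from EGLN2 in the A498 comparison, a called value of -0.22, sign changes concern values that were not called. ARNT in 786-O resistant minus parental was -0.0155 with no filter, -0.0130 under atezolizumab alone and -0.0294 under durvalumab alone (-0.0122 to 0.0151 without 1 library). ARNT between the resistant states was 0.00175 in DESeq2, 0.00180 with RLE scaling and 0.0273 with raw totals (-0.0110 to 0.00801 without 1 library). ARNT in libraries labelled A498 resistant minus 786-O parental was 7.6e-05 in DESeq2, 9.22e-05 with RLE scaling, 0.0626 with the strict filter and 0.138 with raw totals, both called (-0.0134 to 0.0153 without 1 library). EPAS1 between the resistant states was -0.0086 with no filter and -0.00119 with the strict filter (-0.0121 to 0.0102 without 1 library). That EGLN2 value was 0.0864 under avelumab alone. The difference between lines for HIF1AN was 0.0319 in DESeq2, 0.0314 with RLE scaling, 0.0466 with no filter, 0.0680 with the strict filter, where it was called, and 0.0112 with raw totals. The cause was not tested.

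Replicate numbers did not pair the libraries in a steady way: of 36 same-numbered pairs, 10 had a correlation above 0.1 (range -0.43 to 0.46). These were 5 of 9 pairs in 786-O resistant and 3 of 9 in A498 parental. The libraries labelled A498 resistant gave 2 of 9 and 786-O parental 0 of 9. The replicate block moved no count of called members by over 1.5 times. It ended 1 call, VHL under durvalumab against atezolizumab in A498 parental (0.23, edgeR adjusted p = 0.0658). Over all genes it took the calls across antibodies from 618 to 300 in 786-O parental and from 140 to 347 in 786-O resistant. Dependence on state in A498 as labelled went from 173 to 112 with the block. Depth limits HIF3A, which no comparison tested, and EGLN2, at about 2 CPM.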
